A study of Mus musculus with 5 samples.

Results

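Distal sites between genes with a peak called in WT but none in dKO naive CD8+ T cells were examined by DNase-seq. This method sequences the short fragments released where DNase I can cut chromatin. The sites were selected on measured values of the peak lists themselves. They are WT peaks on chromosomes 1 to 19 that overlap no peak of the dKO list by even 1 bp, with a summit more than 1000 bp from every annotated transcription start site (TSS) and outside every annotated gene body, and with a pileup of at least 54 fragments, the median of the WT list. The pileup is the number of sequenced fragments that cover the summit. Of 31116 WT peaks, 487 met these conditions. They were 13.1% of the 3707 strong intergenic distal WT peaks, whereas 30.1% of all autosomal WT peaks had no dKO peak. The WT list was made from 3 pooled replicates and the dKO list from 2, so neither list carries a value per replicate. No spread between replicates could be computed, and no test between genotypes was possible from the lists. The study itself tested its sites on read counts of each replicate, which the lists do not hold. Lack of a called peak in the dKO pool does not show that a site is closed in dKO cells. In such pools, a site open in fewer cells and a site less open in every cell cannot be told apart.

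WT cells came from *hCD2-Cre*+ *Rosa26* GFP mice with intact *Tcf7* and *Lef1* alleles, and dKO cells from *hCD2-Cre*+ *Rosa26* GFP mice with both copies of *Tcf7*, which encodes Tcf1, and of *Lef1* floxed. Both groups thus carried the Cre transgene, whose activity is highest in mature T cells outside the thymus, and the GFP reporter that marks cells in which Cre has acted. Cells were sorted from the spleen as GFP+ TCRbeta+ CD8+ cells of naive surface phenotype, CD44lo-med among its markers, and the ages of the mice are not stated in the labels. Peaks lay within 1 kb of a TSS of *Cd3e*, *Cd3g*, *Cd247*, *Cd8a*, *Cd8b1*, *Lck*, *Zap70*, *Ccr7* and *Il7r* in both lists, and none lay there at *Cd4*, at the B cell genes *Cd79a*, *Pax5* and *Ms4a1*, at the myeloid genes *Lyz2* and *Csf1r* or at the NK cell genes *Ncr1* and *Klrb1c*. The myeloid gene *Itgam* had a WT peak with a pileup of 36 and no dKO peak.

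Tcf1 and Lef1 are closely related DNA-binding proteins of the high-mobility-group family that recognise a short sequence with the core ATCAAAG and are needed for the T cell programme. Sites far from genes are often enhancers, which bind combinations of such factors with Ets and Runx family proteins. Another class of distal open site is bound by Ctcf, a zinc finger protein that marks insulators and the anchors of chromatin loops and protects a short, sharply placed stretch of DNA. Both kinds of sequence were searched for within 100 bp of each summit, on both strands, a window of 201 bp that reaches beyond the ends of the narrower peaks.

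Both kinds were found among the 487 sites, in peaks of different width. Of the sites, 38 (7.80%) had the Tcf/Lef core and 256 (52.6%) had a Ctcf core, here the form AGGGGGC or the form AGGTGGC or the form AGAGGGC or the form AGATGGC. Sites with the Tcf/Lef core had a median width of 232 bp, and 71.1% of them were over 200 bp wide. Sites with a Ctcf core had a median width of 118 bp, and 14.8% of them were over 200 bp wide. Both cores were present in 13 sites, and 206 sites had neither. Only these exact words were counted, so a site without them can still hold a variant.

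The following stretches show the Tcf/Lef core in the sites that carry it. They are the 8 sites over 200 bp wide among the 10 with the highest fold enrichment of those with the core, and the site nearest *Ctnnb1*, the gene for beta-catenin, the coactivator that Tcf1 and Lef1 can recruit. Each is named by its nearest protein-coding gene, is in mm9 coordinates and is written 5′ to 3′ on the strand on which the core reads ATCAAAG, with the core in capitals.
Zfp629 site, chr7:134772389-134772455, minus strand: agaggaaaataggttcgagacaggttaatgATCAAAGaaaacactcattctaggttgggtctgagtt
Arrdc3 site, chr13:81001567-81001633, plus strand: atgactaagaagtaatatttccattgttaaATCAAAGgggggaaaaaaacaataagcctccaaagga
Plin2 site, chr4:86329424-86329490, minus strand: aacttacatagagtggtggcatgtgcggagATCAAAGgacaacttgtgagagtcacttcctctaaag
Nck2 site, chr1:43460420-43460486, minus strand: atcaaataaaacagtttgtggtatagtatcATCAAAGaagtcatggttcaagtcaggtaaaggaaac
Mtx2 site, chr2:74911377-74911443, minus strand: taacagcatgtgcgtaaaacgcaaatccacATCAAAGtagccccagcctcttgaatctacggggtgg
Lclat1 site, chr17:73436531-73436597, minus strand: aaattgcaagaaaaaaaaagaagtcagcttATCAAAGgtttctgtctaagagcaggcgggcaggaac
Fam43a site, chr16:30769766-30769832, minus strand: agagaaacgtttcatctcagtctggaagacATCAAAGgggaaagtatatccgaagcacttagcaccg
Prickle1 site, chr15:93543197-93543263, minus strand: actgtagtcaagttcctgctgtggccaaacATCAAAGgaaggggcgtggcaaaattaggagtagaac
Ctnnb1 site, chr9:120705453-120705519, plus strand: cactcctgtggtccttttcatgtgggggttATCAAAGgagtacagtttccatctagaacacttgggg

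The *Arrdc3* core lay just outside the peak as called and the others lay within it. Over all 487 sites there were 41 matches to the core in 38 sites, and the most frequent neighbours were C before and G after, in 7 matches.

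The next stretches show the Ctcf core, mostly in narrow sites, although the *Lao1* site was 188 bp wide and the *Eomes* site 222 bp. The first 7 are from the 10 sites with the highest fold enrichment, and the last 4 are sites nearest T cell genes. Only sites with the core within 25 bp of the summit are shown. They are written in the same way, with the Ctcf core in capitals.
6330409N04Rik site, chr14:62190366-62190432, plus strand: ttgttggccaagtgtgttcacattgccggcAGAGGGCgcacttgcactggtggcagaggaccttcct
Icos site, chr1:61112157-61112223, plus strand: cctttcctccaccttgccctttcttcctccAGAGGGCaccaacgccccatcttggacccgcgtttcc
Dguok site, chr6:83462664-83462730, minus strand: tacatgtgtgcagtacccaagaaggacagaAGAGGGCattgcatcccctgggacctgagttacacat
1700017N19Rik site, chr10:100204863-100204929, plus strand: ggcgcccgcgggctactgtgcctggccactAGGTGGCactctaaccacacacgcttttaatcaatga
Gkn3 site, chr6:87349285-87349351, plus strand: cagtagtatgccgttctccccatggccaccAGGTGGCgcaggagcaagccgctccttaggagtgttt
Lao1 site, chr4:118677748-118677814, plus strand: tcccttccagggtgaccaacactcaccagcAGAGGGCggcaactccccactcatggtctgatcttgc
Pfkl site, chr10:77481619-77481685, plus strand: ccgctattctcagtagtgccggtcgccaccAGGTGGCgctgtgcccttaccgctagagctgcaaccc
Runx3 site, chr4:134622810-134622876, plus strand: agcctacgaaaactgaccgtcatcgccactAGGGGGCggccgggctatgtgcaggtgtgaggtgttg
Cd5 site, chr19:10789334-10789400, plus strand: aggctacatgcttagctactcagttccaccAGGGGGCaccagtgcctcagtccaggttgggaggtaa
Foxo1 site, chr3:52000413-52000479, minus strand: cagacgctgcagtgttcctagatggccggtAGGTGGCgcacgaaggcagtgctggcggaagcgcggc
Eomes site, chr9:118398941-118399007, minus strand: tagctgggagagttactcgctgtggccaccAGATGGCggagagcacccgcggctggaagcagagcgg

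In all of these stretches but that of the *Dguok* site, the letters CC and 3 further bases precede the core, as in the longer sequence known to be bound by Ctcf. The *Cnot6*, *Lef1* and *Klrb1c* sites, not shown, had their core 76, 78 and 31 bp from the summit. In none of them did CC and 3 further bases precede it. That longer form, CC with any 3 bases and then the core, was present in 191 of the 487 sites (39.2%), in 26.5% of the strong shared sites, which are the WT peaks of the same position and pileup class that did overlap a dKO peak, and in 13.3% of all autosomal WT peaks. In peaks of up to 120 bp it was present in 55.9% of the sites (95% Wilson interval 49.0 to 62.5) and 50.7% of the shared sites (46.0 to 55.4), which overlap.

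The sites had modest to high signal within the WT list. Their pileup ran from 54 to 156 fragments with a median of 64, against a median of 78 in the 3220 strong shared sites. Their fold enrichment, the pileup over the local background with 1 added to each, ran from 1.82 to 19.1 with a median of 10.6, against 11.4 in the strong shared sites. The local background had a median of 5.13 fragments, close to the genome-wide level of 4.38, and GC content near the summit had a median of 49.3%, against 50.2% in the strong shared sites. Fold enrichment of at least 4, with the p and q cut-offs the study used for an open site, was met by 480 of the 487 sites.

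Absence from the dKO list is the property that chose the sites, and its frequency is given here only as a description. The share of 30.1% was taken over 30399 autosomal WT peaks, and it was 8.89% of the strong ones at any position. In the opposite direction, 195 of 3102 strong intergenic distal dKO peaks, or 6.29%, had no WT peak. The rule has a sharp edge at the pileup of 54. It was met exactly by 32 sites, among them those nearest *Rgs13*, *Moap1* and *Gm17729*, each with a fold enrichment of 10.22. Another 34 intergenic distal WT-only peaks had a pileup of 53, among them those nearest *Sh3pxd2b*, *Gucy2e* and *Fam58b*, each with a fold enrichment of 10.04.

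The pools differed in depth, with 83923734 fragments in WT and 62242963 in dKO, a ratio of 0.742. Scaled by that ratio, the pileups of the sites came to 40.0 to 116 fragments with a median of 47.5. The lowest pileup in the dKO list was 13, and 47.6% of its peaks had a pileup under 40.0. In the strong shared sites, the dKO pileup was a median of 0.678 times the WT pileup, with a range from the 5th to the 95th percentile of 0.414 to 1.01. The nearest dKO peak lay at a median distance of 8090 bp. It was within 500 bp of 25 of the 487 sites and within 10000 bp of 269.

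The sites were narrower than the shared sites. Their median width was 135 bp, against 219 bp for the strong shared sites. Widths of up to 120 bp were found in 204 of the 487 sites (41.9%, 95% Wilson interval 37.6 to 46.3) and in 13.5% of the strong shared sites (12.3 to 14.7). These and all later intervals cover counting error only. Widths over 200 bp were found in 29.0% and 56.4%. Narrow peaks were also frequent in the 195 strong intergenic distal peaks found in dKO alone, of which 48.7% (41.8 to 55.7) were up to 120 bp wide, and in the 576 strong WT-only peaks within genes, of which 31.9% (28.3 to 35.9) were.

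**Figure D1:**
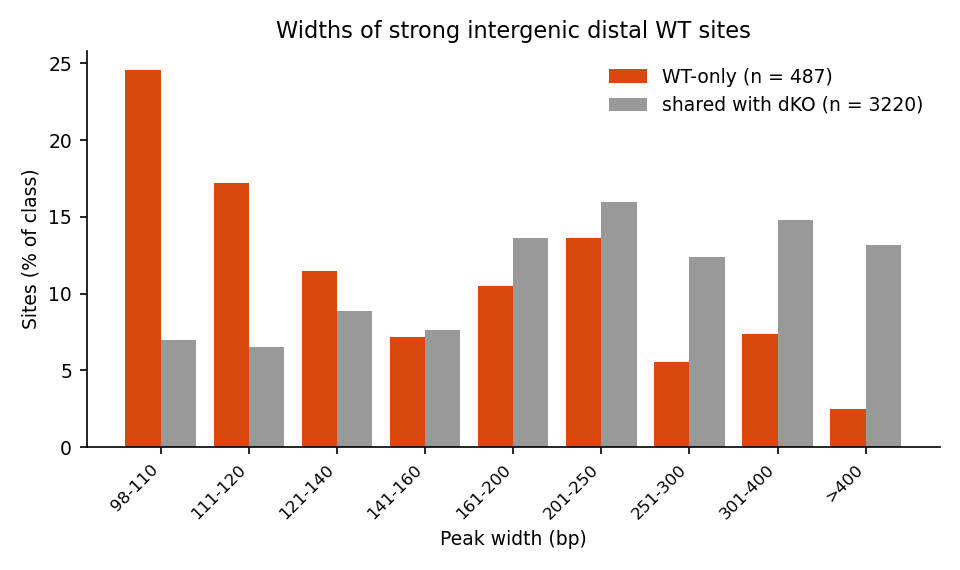
Share of strong intergenic distal WT sites in each class of peak width, in % of the class, for sites without a dKO peak (orange, 487 sites) and sites with one (grey, 3220 sites). Widths from 98 to 110 bp hold 24.6% of the WT-only and 6.96% of the shared sites, and the shared sites are the more frequent from 141 bp upwards.

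The narrowest peak was 98 bp wide in the WT list and 97 bp in the dKO list. These are the fragment sizes the peak caller worked with, and no narrower peak is in either list. Width here is that of the called peak and does not measure the opening itself. Of the 434 strong shared sites that were up to 120 bp wide in WT, 141 had a dKO peak within 10 bp of that minimum. Read by width, 32.0% of the strong intergenic distal WT peaks of up to 120 bp had no dKO peak, 12.8% of those of 121 to 200 bp and 7.20% of those over 200 bp. The part of the minimum width in the absence of narrow sites from the dKO list was not tested.

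**Figure D2:**
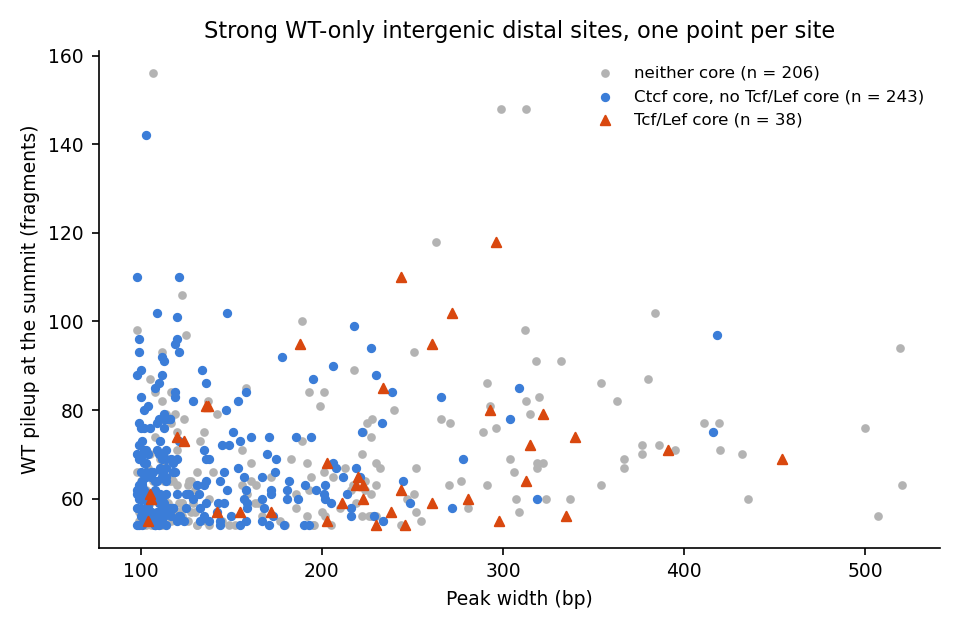
Pileup at the summit in fragments (vertical) against peak width in bp (horizontal), 1 point for each of the 487 sites. Orange triangles are the 38 sites with the Tcf/Lef core, blue points the 243 with a Ctcf core alone and grey points the 206 with neither; the blue points crowd at the left edge, near the minimum width of 98 bp.

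The Tcf/Lef core was found in 7.80% of the 487 sites (5.74 to 10.5) and in 3.63% of the strong shared sites (3.04 to 4.34). All autosomal WT peaks had it in 3.91%, and the strong intergenic distal peaks found in dKO alone in 2.56% (5 of 195, 1.10 to 5.86). The difference between the sites and the shared sites lay in the wide peaks. Over 200 bp, 27 of 141 sites had the core (19.1%, 13.5 to 26.4), against 79 of 1817 shared sites (4.35%, 3.50 to 5.39), and the intervals did not overlap. Up to 120 bp, 4 of 204 sites had it (1.96%, 0.765 to 4.93), against 7 of 434 shared sites (1.61%, 0.783 to 3.29), and from 121 to 200 bp the shares were 4.93% and 3.20%, with overlapping intervals in both cases. Strong WT-only peaks within genes showed a like share when wide, 36 of 200 (18%, 13.3 to 23.9), and weak WT-only intergenic distal peaks over 200 bp had the core in 11.6% (9.09 to 14.6). In these other WT-only classes, higher shares than in the shared sites were not confined to that width. From 121 to 200 bp the core was in 12.5% of the peaks within genes (8.55 to 17.9) and 7.28% of the weak ones (5.91 to 8.94). Over all widths it was in 11.3% and 7.31%.

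The same counts can be read from the side of the core. Of the 106 strong intergenic distal WT peaks over 200 bp with the Tcf/Lef core, 25.5% had no dKO peak (18.1 to 34.5), against 6.16% of the 1852 without it (5.15 to 7.34). The order was the same at each level of signal, with levels parted at the median pileup of the sites and of the shared sites. At pileups of 54 to 63 the shares were 50% with the core and 11.9% without it, at 64 to 78 they were 23.3% and 8.96%, and at 79 or more they were 14% and 2.78%. The numbers with the core were small, 13 of 26, 7 of 30 and 7 of 50, and at 64 to 78 the intervals met (11.8 to 40.9 against 6.74 to 11.8), while at the lower and the higher pileups they did not overlap.

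**Figure D3:**
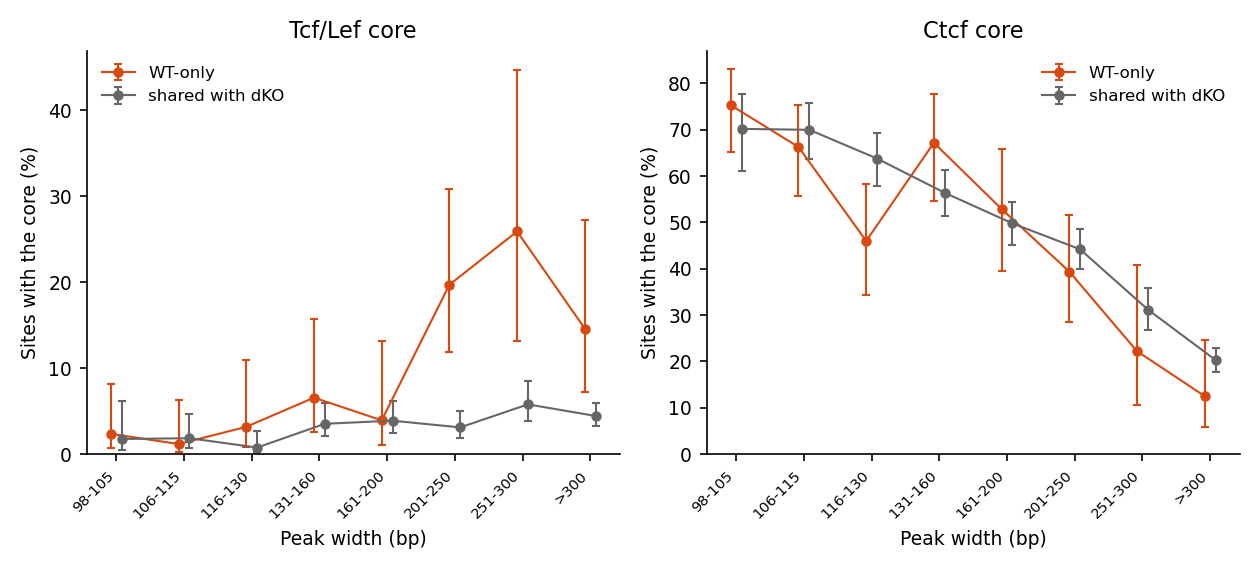
Share of sites, in %, with the Tcf/Lef core (left) and with a Ctcf core (right) in 8 classes of peak width in bp, for WT-only sites (orange) and shared sites (grey), with 95% Wilson intervals as bars. The Tcf/Lef shares part only above 200 bp, where the WT-only sites stand at 14.6% to 25.9% and the shared ones at 3.10% to 5.78%, and the Ctcf shares are lower in wide than in narrow peaks in both, with an uneven course in the WT-only sites between 106 and 160 bp (66.3%, 46.0% and 67.2%, against 70.0%, 63.8% and 56.4% in the shared sites).

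A Ctcf core was present in 52.6% of the sites (48.1 to 57.0), in 42.3% of the strong shared sites (40.6 to 44.0) and in 31.2% of all autosomal WT peaks. At matched width this difference was not seen. Up to 120 bp the shares were 68.1% (61.5 to 74.1) in the sites and 69.8% (65.3 to 73.9) in the shared sites, from 121 to 200 bp they were 55.6% and 54.1%, and over 200 bp they were 27.0% and 29.4%. The narrow strong peaks found in dKO alone had it in 64.2% (54.2 to 73.1). Among strong intergenic distal WT peaks of up to 120 bp, those with a Ctcf core lacked a dKO peak in 31.4% of cases and those without one in 33.2%.

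**Figure D4:**
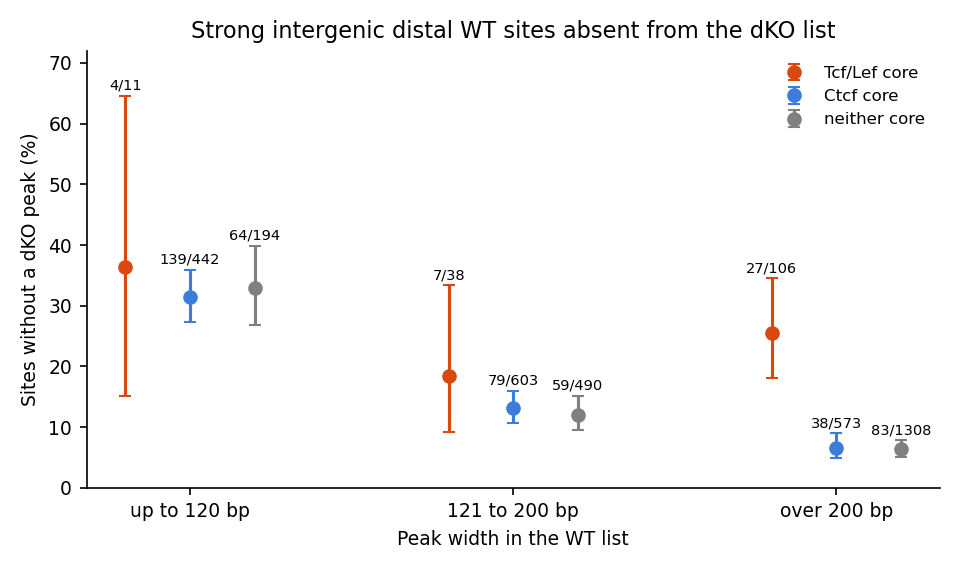
Share of strong intergenic distal WT peaks without a dKO peak, in %, by peak width and by core, with 95% Wilson intervals as bars and the counts above them. Peaks of up to 120 bp lack a dKO peak in about equal shares whichever core they hold (31.4% with a Ctcf core, 33.0% with neither), and over 200 bp peaks with the Tcf/Lef core stand apart at 25.5%; peaks with both cores count in both.

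Of the forms of the Ctcf core, AGGGGGC was more frequent in the sites than in the shared sites over all widths, 17.2% (14.2 to 20.9) against 10.1% (9.10 to 11.2). The form AGAGGGC was so too, 21.6% (18.1 to 25.4) against 14.3% (13.2 to 15.6). The intervals overlapped for AGGTGGC, 11.3% (8.78 to 14.4) against 13.4% (12.3 to 14.7), and for AGATGGC, 8.83% (6.62 to 11.7) against 9.22% (8.27 to 10.3). Up to 120 bp the shares for AGGGGGC were 24.0% (18.7 to 30.3) and 15.2% (12.1 to 18.9), with intervals that just overlapped. The intervals of that width class also overlapped for AGAGGGC, 25% (19.6 to 31.4) and 26.5% (22.6 to 30.8), for AGGTGGC, 15.2% (10.9 to 20.8) and 23.3% (19.5 to 27.5), and for AGATGGC, 14.2% (10.1 to 19.7) and 10.8% (8.24 to 14.1). From 121 to 200 bp the form AGATGGC was in 2.11% of the sites (0.721 to 6.03) and 12.2% of the shared sites (10.3 to 14.4).

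The cores differed in their distance from the summit within the search window, which reaches beyond the ends of the narrower peaks. The Ctcf core nearest to the summit lay a median of 8 bp from it, and 89.8% of the sites with a Ctcf core had it within 25 bp. The Tcf/Lef core lay a median of 54.5 bp from the summit, and 7 of 38 sites (18.4%) had it within 25 bp. Its matches were spread over the whole window and did not gather at the summit. The shared sites gave medians of 10 and 47 bp.

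**Figure D5:**
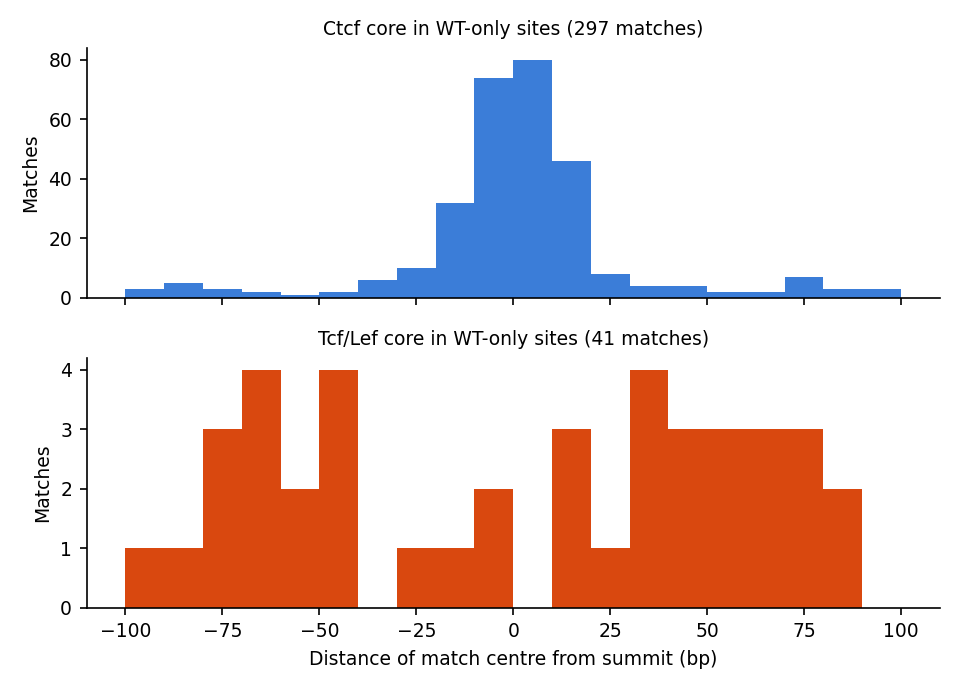
Number of matches to a Ctcf core (top, 297 matches) and to the Tcf/Lef core (bottom, 41 matches) in bins of 10 bp by the distance in bp of the match centre from the peak summit, over the 487 sites. Ctcf matches pile up at the summit, and Tcf/Lef matches are spread over the whole window.

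All 7-letter words were also ranked by the ratio of their share in the sites to that in the strong shared sites, with a small constant added to the shared counts, over words present in at least 15 sites. The highest ratio was that of ACATCAA, in 8.42% of the sites and 2.83% of the shared ones. This word overlaps the Tcf/Lef core by 5 letters, and CACATCA and CATCAAA, which overlap it too, also ranked among the first 10. TTCAAAG, which differs from the core only in its first letter, ranked 17th, in 13.1% of the sites and 6.02% of the shared ones. ATCAAAG itself ranked 18th. In the sites over 200 bp, ACATCAA was found in 16.3% (11.1 to 23.3), against 3.30% (2.57 to 4.23) of the shared sites of that width. The word was picked for its high ratio in these same sites, so a difference in their wide part follows largely from that choice and is only a description.

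Other cores differed little between the sites and the shared sites, or differed in ways that changed with width. The Ets core AGGAAG, bound by the Ets family, was present in 30.8% of the sites (26.9 to 35.0), 37.0% of the strong shared sites (35.4 to 38.7) and 36.0% of all autosomal WT peaks. At matched width the intervals overlapped, with 25% of the sites and 23.5% of the shared sites up to 120 bp, 33.8% and 32.1% from 121 to 200 bp, and 36.2% and 42.9% over 200 bp. The longer Ets core CCGGAAG was present in 1.64% of the sites (0.835 to 3.21) and 4.75% of the shared ones (4.07 to 5.54), and within each width class the intervals overlapped. The GC box GGGCGG of Klf and Sp factors was present in 9.86% (7.51 to 12.8) and 13.4% (12.3 to 14.7), with overlapping intervals. It was less frequent in the sites over 200 bp, 6.38% (3.39 to 11.7) against 16.7% (15 to 18.5), and more frequent in those of up to 120 bp, 9.80% (6.44 to 14.7) against 3.92% (2.46 to 6.18). The Runx core TGTGGTT was present in 11.3% and 11.9%, and over 200 bp in 19.9% (14.1 to 27.2) and 15.4% (13.8 to 17.1). Among the strong intergenic distal peaks found in dKO alone it was present in 18.5% (13.6 to 24.5), with bounds that overlapped those of the WT-only sites (8.78 to 14.4). The intervals of the sites and of the shared sites also overlapped for the Gata core AGATAAG (2.05% and 2.14%), the E-boxes CAGGTG (20.9% and 19.4%) and CAGCTG (11.5% and 13.9%), the AP-1 core TGACTCA (5.34% and 5.12%), the NFAT core TGGAAAA (2.87% and 4.32%), the Stat core (5.54% and 6.43%), the Fox core TGTTTAC (2.05% and 3.54%) and the Oct core ATGCAAA (2.26% and 3.73%). Of the 27 wide sites with the Tcf/Lef core, 14 also had the Ets core and 5 the Runx core. None of the cores searched was present in 54 of the 487 sites.

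The sites stood at the same distances from genes as the shared sites. The nearest TSS of any gene was a median of 14500 bp away, against 14040 bp for the strong shared sites. Within 5 kb of a TSS lay 21.4% of the sites and 21.3% of the shared ones, and more than 100 kb away lay 6.57% (4.69 to 9.13) and 5.28% (4.56 to 6.11). The nearest protein-coding TSS was downstream of the site, so that the site lay on its upstream side, in 308 cases (63.2%), against 66.5% of the shared sites. The sites had 453 different nearest protein-coding genes, of which 28 had 2 sites and 3, *Dapl1*, *Scml4* and *Nnmt*, had 3. A strong shared site lay within 50 kb of 46.2% of the sites (41.8 to 50.6), and another shared site within 50 kb of 52.8% of the shared ones (51.1 to 54.5).

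Of the 487 sites, 63 (12.9%, 10.2 to 16.2) had another of the sites within 50 kb. Of the strong shared sites, 11.4% (10.3 to 12.5) had a site of the 487 within 50 kb, and the intervals overlapped. The 63 sites formed 27 pairs and 3 groups of 3, and no larger group. In most of these pairs and groups, no dKO peak lay between the first and the last summit. All 3 sites of the *Dapl1* group lay upstream of the gene, at 44.0, 16.5 and 14.7 kb from its TSS, with pileups of 62, 54 and 56. No other WT peak and no dKO peak lay between the first and the last of their summits, which were 29.3 kb apart. *Dapl1* is a gene expressed in naive and resting T cells. The 3 sites of the *Nnmt* group, with pileups of 60, 63 and 59 over 26.5 kb, likewise had no dKO peak between them, and neither did the pair between *Bhlhe40*, a transcription factor gene of activated lymphocytes, and *Arl8b*, nor the *Atp11b* pair, which lay 448 and 436 kb from the TSS of that gene with pileups of 68 and 87. The third group spanned 25.4 kb from *Stard7* to *Dusp2*, which encodes a phosphatase of the MAP kinases. Its summits enclosed 7 WT peaks, of which 4 had no dKO peak, and 3 dKO peaks.

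The sites with the highest pileup were of mixed kind. The highest value, 156 fragments, belonged to a 107-bp peak at chr11:3031547-3031653 beside *Sfi1*, where the local background was 85.2 fragments and the fold enrichment only 1.82, the lowest of all the sites. A dKO peak lay 334 bp from it. It thus did not meet the 4-fold criterion. Its sequence had a match of at least 90% identity over at least 80% of its length at 1 other place in the genome. The next 2, each with 148 fragments, were broad. One, at chr10:20955053-20955351, was 299 bp wide with a fold enrichment of 17.0 and lay between *Myb*, which encodes a transcription factor of blood progenitors and T cells, and *Hbs1l*, 74.4 kb from the first and 60.6 kb from the TSS of the second. The nearest dKO peak was 16.7 kb away, and another of the 487 sites, with a pileup of 73, lay 19.6 kb from it. The whole peak is shown because it was the only site among the first 10 by both pileup and fold enrichment that was over 200 bp wide, with capitals for the NFAT core (on the minus strand), both E-boxes and the Ets core it holds.
Myb to Hbs1l site, chr10:20955053-20955351, plus strand: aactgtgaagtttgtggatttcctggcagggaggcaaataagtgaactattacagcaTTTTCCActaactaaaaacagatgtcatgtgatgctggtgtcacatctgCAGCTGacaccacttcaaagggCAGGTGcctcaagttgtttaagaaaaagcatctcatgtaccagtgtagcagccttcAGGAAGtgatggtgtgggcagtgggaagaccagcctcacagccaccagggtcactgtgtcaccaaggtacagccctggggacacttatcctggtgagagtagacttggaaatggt

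Neither the exact Tcf/Lef core ATCAAAG nor a Ctcf core was present in that peak within 100 bp of its summit. The peak as printed does hold TTCAAAG, which differs from the Tcf/Lef core only in its first letter. The other site with 148 fragments, at chr13:107849561-107849873, was 313 bp wide, had a fold enrichment of 15 and lay 27.7 kb from the TSS of *3830408C21Rik*. The remaining 7 were nearest *Wbscr16* (142 fragments), *Suclg1* and *1700021F07Rik* (118 each), *Mtx2*, *1700017N19Rik* and *Zfp78* (110 each) and *Cpm* (106). Of these 10 sites, 2 had the Tcf/Lef core, the *Mtx2* and *1700021F07Rik* sites, and 4 had a Ctcf core. The *Mtx2* site, at chr2:74911349-74911592, lay 204 kb from the TSS of that gene, had a fold enrichment of 12.9 and held the core 7 bp from its summit, in the stretch shown above.

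The sites with the highest fold enrichment mostly had a Ctcf core. Of the first 10, 9 had one, and 1 of these, the *Lao1* site, also had the Tcf/Lef core, outside the peak as called. The Ctcf core of the *Cnot6* site, also among the 9, lay 76 bp from the summit and ran past the end of the peak as called. The highest was the 109-bp peak at chr14:62190354-62190462, 14.7 kb upstream of *6330409N04Rik*, with 102 fragments over a background of 4.38 and a fold enrichment of 19.1. The second was the 120-bp peak at chr1:61112136-61112255, with 101 fragments and a fold enrichment of 18.3. It lay 55.0 kb beyond the end of *Icos*, which encodes a costimulatory receptor, and 77.3 kb from the nearest dKO peak. Among sites with the Tcf/Lef core, the *Lao1* site led with 17.3, followed by the *Zfp629* site with 16.9, the *Arrdc3* site with 14.6 and the *Car14* site with 14.0. The *Plin2* site, 13.4 kb upstream of the gene for a lipid droplet protein, had 102 fragments and a fold enrichment of 13.6, and held Ets and Runx cores as well.

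Sites nearest genes of the T cell programme were few, with pileups from 54 to 101 fragments among those named. Of 31 transcription factor genes of the T lineage, 6 had a site nearest to them, 8 sites in all. The highest was 11.0 kb downstream of the TSS of *Eomes*, which encodes a T-box factor of effector and memory CD8+ T cells, with 75 fragments, a width of 222 bp and a Ctcf core 15 bp from the summit. Those nearest *Foxo1*, a regulator of naive T cell homing and quiescence, and *Runx3*, a CD8 lineage factor, each had 71 fragments, widths of 102 and 103 bp and a Ctcf core 5 and 3 bp from the summit. The site nearest *Satb1*, a chromatin organiser of T cells, had 61 fragments and neither core. The site nearest *Lef1*, itself floxed in the dKO, lay 4.33 kb upstream of its TSS and had 58 fragments, and its Ctcf core was 78 bp from the summit and outside the peak as called.

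Of 29 genes of T cell receptor and coreceptor signalling, 3 had a site. The *Cd5* site, 3.26 kb beyond the end of this gene for an inhibitory coreceptor, had 78 fragments. The *Cd3e* site, 13.4 kb upstream of the gene for a CD3 chain, had 70 fragments, and the *Rasgrp1* site, 102 kb upstream of the gene for an activator of Ras, had 56. All 3 were up to 113 bp wide and none had the Tcf/Lef core. Of 24 genes of naive T cell homing and survival, 6 had a site, 9 sites in all. *Btg2*, with 89 fragments, and *Btg1*, with 83 and 65, encode antiproliferative proteins of quiescent lymphocytes. The site nearest *S1pr1*, which encodes the receptor for exit from lymphoid organs, had 64 fragments. Effector genes had 3 sites, at *Fasl* with 60, *Gzmb* with 57 and *Bhlhe40* with 55 fragments, and of these the *Gzmb* site alone had the Tcf/Lef core. The *Icos* site above and a 289-bp site nearest *Maf*, 307 kb from its TSS and 78 bp from a dKO peak, were the 2 on the list of inhibitory and exhaustion genes. Among Tcf/Lef partners the *Bcl9* site had 63 fragments and the *Ctnnb1* site, 133 kb upstream of that gene with the Tcf/Lef core, had 56.

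For the lists of T cell genes these shares were close to those of the shared sites. Transcription factor genes of the T lineage were nearest to 1.64% of the sites and 1.55% of the strong shared ones, genes of homing and survival to 1.85% and 1.93%, receptor signalling genes to 0.616% and 0.776%, effector genes to 0.616% and 0.652% and inhibitory genes to 0.411% and 0.373%. The list of Wnt pathway genes and Tcf/Lef partners stood further apart but on small numbers, with 2 sites (0.411%) against 7 shared sites (0.217%). B cell genes had 2 sites (0.411%, against 2 shared sites or 0.0621%), both downstream of *Sykb* with 56 and 77 fragments. Myeloid and NK cell genes had 1 (0.205%, against 0.373%), upstream of *Klrb1c* with 96 fragments in a 99-bp peak. The sequence of that peak had a match of at least 90% identity over at least 80% of its length at 1 other place. Among lineage-enriched gene lists that the study drew from an outside expression atlas, pan-T cell genes were nearest to 19 sites (3.90%, against 3.45% of the shared sites), B cell genes to 16 (3.29% and 1.89%), pan-NK genes to 17 (3.49% and 2.92%) and effector CD8 genes to 11 (2.26% and 1.55%). Naive CD8 genes were nearest to 1 site and 28 shared sites (0.205% and 0.870%), and conventional dendritic cell genes to 3 and 58 (0.616% and 1.80%). Of the other lists, gamma-delta T cell genes were nearest to 11 sites (2.26%, against 3.39% of the shared sites), granulocyte genes to 10 (2.05% and 2.98%), monocyte genes to 5 (1.03% and 0.963%), plasmacytoid dendritic cell genes to 4 (0.821% and 1.21%), regulatory T cell genes to 4 (0.821% and 1.27%) and naive CD4 genes to 0, against 8 shared sites (0.248%).

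Most sites were single-copy sequence. Outside their own position, 468 of the 487 (96.1%) had no match in the genome of at least 90% identity over at least 80% of their length, and 11 had 5 or more. The sites were spread over all autosomes. They made up between 8.06% of the strong intergenic distal WT peaks on chromosome 16 (10 of 124) and 20.4% on chromosome 5 (39 of 191), with intervals of 4.44 to 14.2 and 15.3 to 26.7.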

How the data were processed

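DNase-seq was run on sorted naive CD8+ T cells of both genotypes. The authors mapped reads to mm9 with Bowtie2, kept uniquely mapped reads, pooled replicates (3 WT, 2 dKO) and called peaks without a control with MACS2 2.1.1.20160309. Per the file headers, peaks were kept at p below 1e-05, the pool was named as input more than once, and the stated total was 2 times the fragments after filtering. The deposited pileup is a signal, the coverage in fragments at the summit. The deposited fold enrichment is a ratio of pileup to local background. The deposited −log10 p and −log10 q values entered only the study's criteria (fold of at least 4, p below 1e-05, q below 0.05).

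Overlaps, distances to NCBIM37 annotation (37310 genes) and motif matches were computed with Python 3.11.15, numpy 2.4.6, pandas 2.3.3, scipy 1.17.1 and pysam 0.24.0, and copies were found with blastn 2.17.0. Scripts were tested on simulated data. Named sites were the 10 highest by pileup, by fold enrichment and by fold enrichment among those with the Tcf/Lef core, up to 5 of each gene list by pileup, those of the 5 leading groups within 50 kb, and the 3 on each side of the pileup threshold. The sites, gene lists and tests were chosen with earlier results of these data known. Width classes, the last 2 forms of the Ctcf core, the longer Ctcf form, 7-letter words, copies and the restriction to peaks over 120 bp were added after the data were seen. Other alternatives were other pileup cut-offs, overlaps, distances, annotations and motif windows. Depth was 83923734 fragments in WT and 62242963 in dKO, and Wilson intervals (95%) cover counting error only. Without values per replicate, no test between genotypes was made. Some items are not reported here.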

Additional observations from a re-analysis of the deposited data

How the results depend on the processing

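No paired analysis was possible because each list is a pool of replicates, and for the same reason no replicate could be left out. The restriction to peaks over 120 bp was chosen after seeing the data, and the cause of the changes below was not tested. The number of sites was 66 at a pileup at or above the 75th percentile and 283 in peaks over 120 bp. The share of strong intergenic distal WT peaks without a dKO peak, 13.1% as reported, was 15.8% with the 20000 strongest peaks of each list, 4.51% at the 75th percentile, 11.8% at the depth-scaled cut-off and 9.22% over 120 bp. The share of sites with another within 50 kb, 12.9% as reported, was 16.6%, 6.06% and 9.25% with the first 3 of these. The Tcf/Lef core was in 3.49% of the sites and 1.83% of the shared sites within 50 bp of the summit, and in 12% of the sites over 120 bp. In peaks over 200 bp it was in 9.93% to 18.9% of the sites and 2.15% to 4.55% of the shared ones over the other settings tried, higher in the sites in each. No direction reversed. The number of sites was 489 when 50% overlap was required, 462 when a dKO peak within 500 bp counted as overlap, 383 beyond 5 kb from a TSS and 500 with the study's criteria. The pools held 62242963 fragments in dKO and 83923734 in WT, and the part of that difference in the absence of peaks from the dKO list was not tested.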

Other observations

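On the X chromosome, outside the autosomes to which the sites were restricted, 644 WT and 555 dKO peaks were called, and 6 WT peaks met the rest of the rule. Of these 6, 1 had the Tcf/Lef core and 3 had a Ctcf core. On the Y chromosome and in the mitochondrial genome, no peak met it.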
